A study of Danio rerio with 4 samples.

Results

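Hox genes encode homeodomain transcription factors that give cells their position along the axis from head to tail. They sit in clusters, and within a cluster the order of the genes follows the order in which the body regions express them, from anterior paralog groups with low numbers to posterior groups with high numbers. Retinoic acid switches on the anterior groups, and the proteins bind DNA together with cofactors of the Pbx and Meis families. In the embryonic heart field, anterior Hox genes mark progenitors that lie close to the posterior end of the field, and they are known in mouse for roles in the outflow tract.

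The rows examined here are those whose gene name begins with hoxa, hoxb, hoxc or hoxd and a paralog group number. The table held 15 such rows among 16662 gene rows. RNA came from hand-dissected hearts of zebrafish (Danio rerio) at 48 hours post fertilisation (hpf), pooled before extraction, with 2 libraries labelled tie1 KO and 2 labelled tie1 WT, all in the Tg(kdrl:eGFP) line, whose transgene marks endothelium through the kdrl promoter. The gene tie1 encodes an endothelial receptor tyrosine kinase, and its mutant allele is not named in the labels. The series' design text speaks of wild-type and heterozygous siblings, so the tie1 WT pools can hold hearts with 1 mutant allele. The sources used here give no pool size, and they do not say whether libraries of a group came from separate clutches, so p-values measure only how these libraries vary, which may be technical.

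Values are the authors' normalised read counts, rounded to whole numbers. The spacing of low values gave an estimated 2390000 and 1770000 reads assigned to genes in tie1 KO 1 and 2, against 3240000 and 2470000 in tie1 WT 1 and 2. By these fits 1 unit stood for between 0.75 and 1.341 reads. The correlation of the fit was 0.473 and 0.905 in tie1 KO, against 0.676 and 0.363 in tie1 WT. Read numbers and counting intervals are therefore approximate, most of all for tie1 WT 2. The mitochondrial genome took 46.2% and 39.8% of the normalised total in tie1 KO, against 34.8% and 32.1% in tie1 WT. The row of tie1 itself stood at 123 and 88 in tie1 KO, against 558 and 300 in tie1 WT, with a limma adjusted p of 0.148. Among heart muscle genes, none of 17 was at 0 in any library, and myh6, an atrial myosin gene, stood at 14807 and 9316 in tie1 KO, against 17731 and 12061 in tie1 WT. The ventricular myosin gene myh7 stood at 13077 and 7093 in tie1 KO, against 31906 and 21256 in tie1 WT. Because hearts were pooled whole, fewer cells of a type and less RNA per cell cannot be told apart.

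The 15 rows came from 7 paralog groups, 1 to 6 and 8, and from 6 clusters. The table held no row of groups 7 and 9 to 13 under this name rule. The sources used here name no row filter, so a missing row is not a measured 0. The cluster hoxba on chromosome 3 gave 6 rows, hoxca on chromosome 23 gave 3, hoxaa on chromosome 19 and hoxda on chromosome 9 gave 2 each, and hoxab on chromosome 16 and hoxbb on chromosome 12 gave 1 each. None of the 15 was at 0 in any library, and the lowest single value was 1. In these rows the values count reads without correction for transcript length, so a higher row is one with more reads and not necessarily one with more transcripts.

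A row entered the test of tie1 KO against tie1 WT if its mean over the 4 libraries was at least 10. That left 9 of the 15 Hox rows, and 12118 rows in all. The 3 highest of the 6 rows below that mean were hoxb5b with a mean of 9.25, hoxd3a with 8 and hoxc4a with 5.25, while the lowest row inside it was hoxd4a with 10.5. The 6 untested rows had single values between 1 and 15, so no more than about 20.1 reads stood behind any of them.

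**Figure D1:**
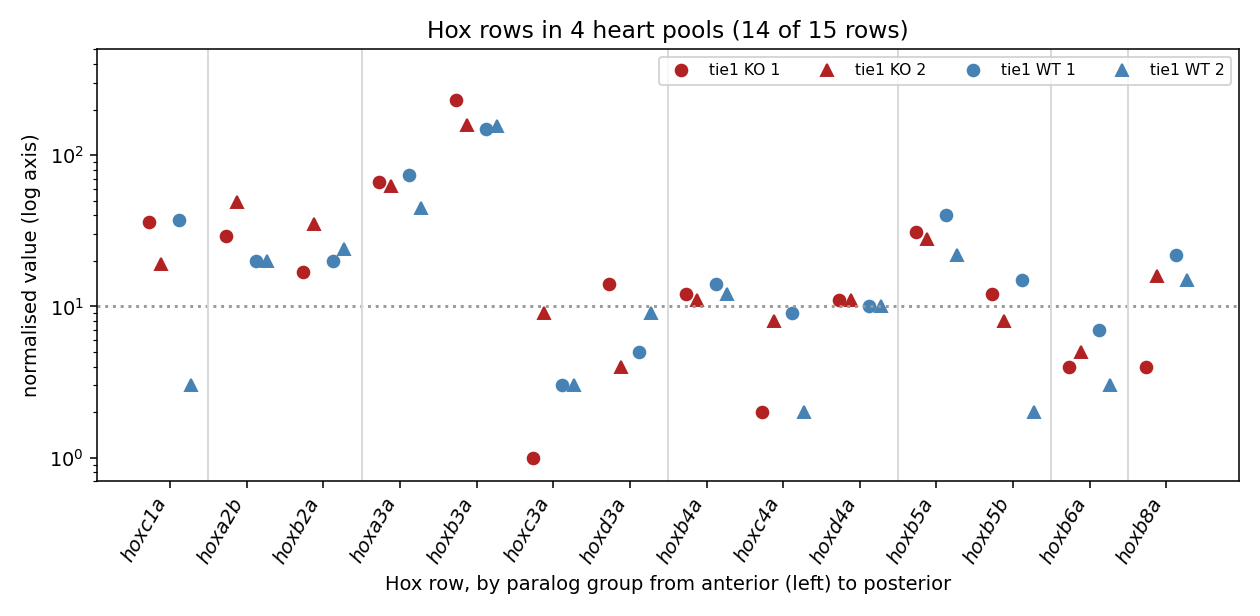
Normalised value (log axis) of 14 of the 15 Hox rows in the tie1 KO (red) and tie1 WT (blue) libraries, ordered by paralog group with grey lines between groups; circles are replicate 1, triangles replicate 2, and the dotted line is a value of 10. The row of hoxb3a lies highest at 148 to 232. The row of hoxc1a stands far lower in tie1 WT 2 than in the other 3 libraries, and hoxb5b is also lowest there.

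No Hox row differed between tie1 KO and tie1 WT hearts past the threshold. In 11 of 15 rows the values of the groups overlapped. Most rows of the whole table overlapped too, with only 16.0% having both KO values above both WT values and 16.6% below. The limma test on log2(value + 1), with Benjamini-Hochberg adjustment over all 12118 rows, called 0 of the 9 tested Hox rows at an adjusted p under 0.05, against a background of 0% of all rows in either direction. The adjusted p of the 9 rows ran from 0.709 to 0.999. At an unadjusted p under 0.05, 1 Hox row was higher in tie1 KO (background 2.61%) and 0 were lower (background 4.34%). Their median log2 fold change was 0.15, against -0.0016 over all rows tested, with 6 above 0 (background 49.7%) and 3 below (background 50.3%). That median came to -0.20 without tie1 WT 2.

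In 3 of the 15 rows both tie1 KO values lay above both tie1 WT values, which is 20% where 16.0% of all rows did so, and in 1 row both lay below, which is 6.67% where 16.6% of all rows did so. Those above were hoxa2b, hoxb3a and hoxd4a, and the one below was too low for the test. The 9 tested rows had standard errors between 0.24 and 0.89 on the log2 scale, against a median of 0.32 over all rows tested, and their 95% intervals reached between 0.55 and 2.02 to either side.

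**Figure D2:**
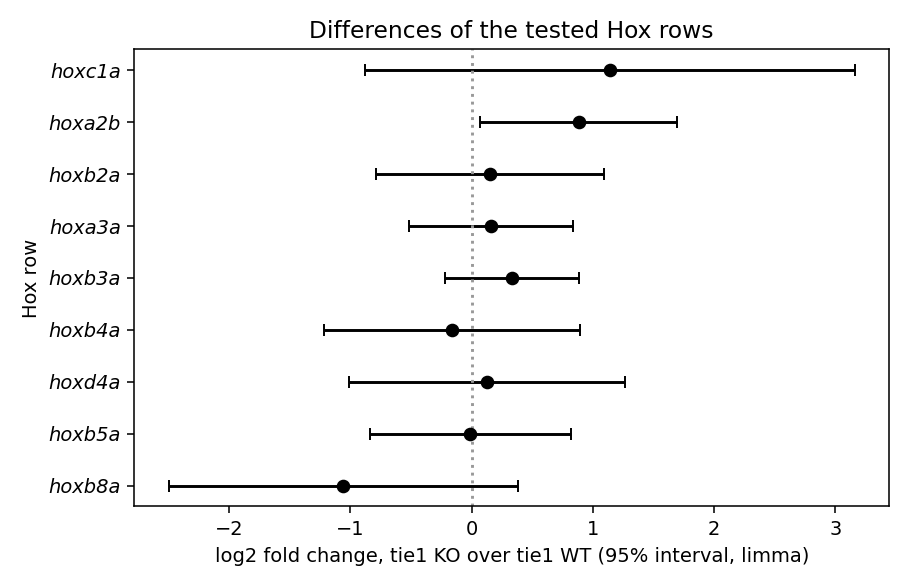
Log2 fold change of tie1 KO over tie1 WT, on the log2(value + 1) scale, for the 9 tested Hox rows, with points for the estimate and bars for its 95% interval from limma (unadjusted). The interval of hoxa2b, from 0.07 to 1.70, leaves out 0 and the other intervals include it.

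Paralog group 1 is the most anterior. Its genes pattern the hindbrain. The row of hoxc1a (ENSDARG00000070337, chromosome 23, positions 36178104 to 36190988 of GRCz11, plus strand) had values of 36 and 19 in tie1 KO, against 37 and 3 in tie1 WT. One WT library was about as high as tie1 KO 1 and the other was below the remaining 3, so the groups overlapped. The log2 ratio of the group means was 0.46. On the log2(value + 1) scale, where the value of 3 weighs more, the fold change was 1.14 ± 0.89 (SE), with a limma adjusted p of 0.833, and without tie1 WT 2 it turned to -0.48. The approximate 95% Poisson intervals of the WT values did not overlap, at 27.4 to 48.8 for tie1 WT 1 and 0.712 to 8.22 for tie1 WT 2. Of the 12118 tested rows, 0.0825% had WT libraries at least as far apart as the hoxc1a values, which differed by 3.25 on the log2 scale. This share was looked up after the values were seen.

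Markers of neurons and neural tube varied across the libraries beside this row. Of 24 listed genes 23 were in the table and 13 were tested. All 13 had a log2 fold change above 0 (background 49.7%), with a median of 0.70, and 0 passed the threshold. Both KO values lay above both WT values in 3 of them (background 15.7% of rows tested). On the log2 scale and relative to the WT mean, the library medians were 1.55 and 0.55 in tie1 KO, against 0.55 and -0.55 in tie1 WT. The WT medians mirror each other around 0 by construction, as the mean is that of the same 2 libraries. The summed value of the 23 genes was 1404 and 768 in tie1 KO, against 908 and 477 in tie1 WT, so tie1 WT 2 was lowest here as in hoxc1a. The list's most read genes were nova2, a neuronal splicing factor gene, with 330 and 217 in tie1 KO, against 268 and 168 in tie1 WT, and tubb5, a tubulin gene, with 190 and 127 in tie1 KO, against 109 and 127 in tie1 WT. The markers stmn2a, phox2bb and gng3 were at 0 in tie1 WT 2, ascl1a and nefma at 0 in tie1 WT 1, and snap25b at 0 in tie1 KO 2. For phox2bb, a transcription factor gene of hindbrain and autonomic neurons, the values were 44 and 7 in tie1 KO, against 29 and 0 in tie1 WT. The smallest p of the list belonged to sox2, with 65 and 37 in tie1 KO, against 6 and 22 in tie1 WT. Next was neurod1, with 66 and 23 in tie1 KO, against 25 and 4 in tie1 WT. The limma adjusted p was 0.459 for sox2 and 0.712 for neurod1. Unlike hoxc1a, sox2 was lowest in tie1 WT 1, while neurod1 was lowest in tie1 WT 2. The part of these markers in the Hox values was not tested.

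Group 2 genes give the second pharyngeal arch its identity, and in zebrafish hoxa2b and hoxb2a share that role. The row with the smallest p among the Hox rows was hoxa2b (ENSDARG00000023031, chromosome 16, positions 20926673 to 20929183, plus strand), with values of 29 and 49 in tie1 KO, against 20 and 20 in tie1 WT. Both KO libraries were higher, and they also differed from each other more than the WT libraries did. The means were 39.0 ± 14.1 in tie1 KO and 20.0 ± 0 in tie1 WT (SD, n = 2 each). The log2 fold change was 0.88 ± 0.36, a fold of 1.84, with an unadjusted p of 0.0365 and an adjusted p of 0.709 in limma, so the difference did not pass. It was 0.51 without tie1 KO 2, and the intervals from counting overlapped between tie1 KO 1 (19.0 to 42.4) and tie1 WT 1 (13.2 to 29.1).

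The gene span of hoxa2b lies within that of tax1bp1b, a gene on the opposite strand, at positions 20805322 to 20932896. The library kit keeps the strand, but the sources used here give no strand setting for the counting, so reads of this pair may not be separated. The values of tax1bp1b were 385 and 343 in tie1 KO, against 428 and 425 in tie1 WT, which is a log2 fold change of -0.23 ± 0.20, opposite in sign to hoxa2b.

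For hoxb2a (ENSDARG00000000175, chromosome 3, positions 23752150 to 23754831, plus strand) the values were 17 and 35 in tie1 KO, against 20 and 24 in tie1 WT. The groups overlapped, with tie1 KO 1 the lowest and tie1 KO 2 the highest of the 4 libraries. The log2 fold change was 0.15 ± 0.42 with a limma adjusted p of 0.964, and it was -0.35 without tie1 KO 2. Summed, the group 2 rows came to 46 and 84 in tie1 KO, against 40 and 44 in tie1 WT, and tie1 KO 2 was highest in each of them. Within a library, the ratio of hoxa2b to hoxb2a values was 1.71 and 1.4 in tie1 KO, against 1 and 0.833 in tie1 WT.

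Among neural crest and pharyngeal arch markers, 19 of 21 were in the table and none was at 0 in any library. Their summed value was 1558 and 1871 in tie1 KO, against 1525 and 1861 in tie1 WT. Of 17 tested, 10 had a log2 fold change above 0 and 7 below, with a median of 0.24. Both KO values lay above both WT values in 5 of them (background 15.7% of rows tested) and below in 2 (background 18.3%). The most read, hand2 and fli1a, genes shared with heart and endothelium, were lower in both KO libraries, with 428 and 333 in tie1 KO, against 452 and 446 in tie1 WT, for hand2, and 280 and 261 in tie1 KO, against 392 and 294 in tie1 WT, for fli1a. The 2 smallest p of the list lay in the other direction. The neural crest factor gene sox10 stood at 25 and 29 in tie1 KO, against 16 and 14 in tie1 WT, with a limma adjusted p of 0.718, and dlx5a, a homeobox gene of the arches and fins, at 84 and 83 in tie1 KO, against 30 and 66 in tie1 WT, with an adjusted p of 0.709. The part of these markers in the group 2 values was not tested.

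Group 3 took 66.2% and 55.2% of the summed Hox value in tie1 KO, against 53.7% and 64.7% in tie1 WT. Genes of this group are expressed in the caudal hindbrain and the posterior pharyngeal arches, and in mouse Hoxa3 is needed for the thymus and the third arch. The row of hoxb3a (ENSDARG00000029263, chromosome 3, positions 23697997 to 23771945, plus strand) had 232 and 159 in tie1 KO, against 148 and 157 in tie1 WT. In tie1 KO 1 it was well above the other 3 libraries, which lay between 148 and 159. The means were 195.5 ± 51.6 in tie1 KO and 152.5 ± 6.36 in tie1 WT (SD, n = 2 each), with a log2 fold change of 0.33 ± 0.24, a 95% interval from -0.22 to 0.89 and a limma adjusted p of 0.828. Without tie1 KO 1 the log2 fold change was 0.06.

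The annotated span of hoxb3a holds hoxb2a, hoxb4a, hoxb5a and hoxb6a on the same strand. The sources used here do not say how reads in shared stretches were assigned, so the values of these neighbours are uncertain against each other. Their ratios to hoxb3a did not move as one. For hoxb5a over hoxb3a the ratio was 0.134 and 0.176 in tie1 KO, against 0.270 and 0.140 in tie1 WT. For hoxb2a it was 0.0733 and 0.220 in tie1 KO, against 0.135 and 0.153 in tie1 WT. In both the groups overlapped. For hoxb4a it was 0.0517 and 0.0692 in tie1 KO, against 0.0946 and 0.0764 in tie1 WT, so both KO ratios were lower. The part of shared reads in these ratios was not tested. The same nesting holds for hoxc4a within hoxc3a and for hoxd4a within hoxd3a.

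The paralog hoxa3a (ENSDARG00000103862, chromosome 19, positions 19754950 to 19780245, plus strand) stood at 66 and 63 in tie1 KO, against 74 and 45 in tie1 WT. The KO libraries lay between the WT libraries. Its log2 fold change was 0.16 ± 0.30 with a limma adjusted p of 0.943, and it was -0.20 without tie1 WT 2. The remaining rows of the group were low: hoxd3a had 14 and 4 in tie1 KO, against 5 and 9 in tie1 WT, and hoxc3a had 1 and 9 in tie1 KO, against 3 and 3 in tie1 WT, with the groups overlapping in both.

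Group 4 genes are expressed up to the boundary region between hindbrain and spinal cord and respond to retinoic acid. Both tested rows of the group differed little among the 4 libraries. The row of hoxb4a (ENSDARG00000013533, chromosome 3, positions 23710839 to 23723982, plus strand) had 12 and 11 in tie1 KO, against 14 and 12 in tie1 WT, with a log2 fold change of -0.16 ± 0.46 and a limma adjusted p of 0.967. The groups met at 12. For hoxd4a (ENSDARG00000059276, chromosome 9, positions 1948465 to 1951144, minus strand) the values were 11 and 11 in tie1 KO, against 10 and 10 in tie1 WT. These groups did not overlap, yet they differed by 1 unit, far less than counting error, and the log2 fold change of 0.13 ± 0.50 had an adjusted p of 0.981. The intervals of the difference, from -1.21 to 0.89 for hoxb4a and from -1.01 to 1.26 for hoxd4a, reach more than 1 log2 unit below 0 in both rows. The untested hoxc4a had 2 and 8 in tie1 KO, against 9 and 2 in tie1 WT.

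Group 5 begins the central Hox genes, which are expressed in the trunk. In zebrafish hoxb5b acts downstream of retinoic acid and limits the number of atrial cells, so it is the member with the closest known tie to heart size. That role does not imply that it acts within heart cells. Its row (ENSDARG00000054030, chromosome 12, positions 27129659 to 27131735, plus strand) stood at 12 and 8 in tie1 KO, against 15 and 2 in tie1 WT, just under the mean needed for the test. The groups overlapped, and tie1 WT 2 was again the lowest, with a counting interval of 0.296 to 6.71 against 9.18 to 23.1 for tie1 WT 1. The tie1 WT 2 interval overlapped those of tie1 KO 1 (5.96 to 21.6) and tie1 KO 2 (2.94 to 17.4).

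Its duplicate hoxb5a (ENSDARG00000013057, chromosome 3, positions 23707691 to 23710095, plus strand) had 31 and 28 in tie1 KO, against 40 and 22 in tie1 WT. The KO libraries lay between the WT libraries, and the means were 29.5 ± 2.12 in tie1 KO and 31 ± 12.7 in tie1 WT (SD, n = 2 each). The log2 fold change was -0.01 ± 0.36, with a 95% interval from -0.84 to 0.82 and a limma adjusted p of 0.999, and its sign changed under other scalings of the libraries. The rows of the group summed to 43 and 36 in tie1 KO, against 55 and 24 in tie1 WT, so the means were 39.5 in tie1 KO and 39.5 in tie1 WT.

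The most posterior rows were hoxb6a and hoxb8a, genes of the trunk. For hoxb6a (ENSDARG00000010630, chromosome 3, positions 23703704 to 23705746, plus strand) the values were 4 and 5 in tie1 KO, against 7 and 3 in tie1 WT, with the KO values between the WT values. For hoxb8a (ENSDARG00000056027, chromosome 3, positions 23687909 to 23690481, plus strand) they were 4 and 16 in tie1 KO, against 22 and 15 in tie1 WT. Only tie1 KO 1 was low, and tie1 KO 2 lay between the WT libraries. The log2 ratio of the group means of hoxb8a was -0.89, and its log2 fold change was -1.06 ± 0.63 with a limma adjusted p of 0.783. It was -0.17 without tie1 KO 1 and -1.94 without tie1 KO 2, so its size rested on that library.

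Markers of trunk mesoderm were uneven across the same libraries. The median over 18 tested skeletal muscle genes, on the log2 scale and relative to the WT mean, was -2.02 in tie1 KO 1 and -0.53 in tie1 KO 2, against -0.02 and 0.02 in tie1 WT 1 and 2. Their summed value, over 21 of 22 genes in the table, was 1783 and 2149 in tie1 KO, against 3549 and 3506 in tie1 WT, and myog, a muscle differentiation factor gene, was at 0 in tie1 KO 1. The most read of them were higher in tie1 KO 1 than in tie1 KO 2, with acta1b, a muscle actin gene, at 962 and 748 in tie1 KO, against 1359 and 1316 in tie1 WT, and ckma, a muscle creatine kinase gene, at 464 and 428 in tie1 KO, against 879 and 682 in tie1 WT. The rows with the smallest p were even between the KO libraries. They were myhz1.2, with 8 and 8 in tie1 KO, against 59 and 58 in tie1 WT, and ckmb, with 29 and 29 in tie1 KO, against 110 and 114 in tie1 WT. Of the 18 tested, 17 had a log2 fold change below 0 (background 50.3%) and 1 above. Both KO values lay below both WT values in 11 (background 18.3% of rows tested), and 0 passed the threshold. Over the 9 of 17 somite and paraxial mesoderm genes in the table, the sum was 95 and 100 in tie1 KO, against 111 and 106 in tie1 WT. Single rows went different ways. The Notch ligand gene dlc had 59 and 28 in tie1 KO, against 38 and 35 in tie1 WT, and ripply1 had 8 and 1 in tie1 KO, against 0 and 3 in tie1 WT. By contrast tbx18, which is also on the list of epicardial genes, had 11 and 28 in tie1 KO, against 37 and 37 in tie1 WT. The somite homeobox gene meox1 had 4 and 20 in tie1 KO, against 19 and 15 in tie1 WT. The part of these markers in the hoxb8a values was not tested.

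Summed over all 15 rows, Hox genes came to 473 and 426 in tie1 KO, against 428 and 331 in tie1 WT. The groups overlapped narrowly, and tie1 WT 2 was the lowest library. The ratio of the means was 1.18, and an exact permutation test over the libraries, two-sided, gave p = 0.667. With 2 libraries in each group that test cannot give less than 0.333. Scaled to 1000000 units of normalised value outside the mitochondrial genome, the sum was 331.8 and 299.3 in tie1 KO, against 272.1 and 226.3 in tie1 WT. The groups did not overlap on that scale. Equal totals outside the mitochondrial genome also raised the median log2 fold change over all 12118 tested rows, from -0.0016 to 0.086.

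The anterior rows, groups 1 to 4, summed to 422 and 369 in tie1 KO, against 344 and 289 in tie1 WT. Both KO sums lay above both WT sums, by a ratio of means of 1.25 and an exact permutation p of 0.333, the smallest the design allows. The separation was lost without hoxb3a, a row chosen for leaving out after the values were seen. Taking out hoxa2b, with 29 and 49 in tie1 KO against 20 and 20 in tie1 WT, would also bring tie1 KO 2 below tie1 WT 1. Other single rows were not examined. The anterior sums without hoxb3a were 190 and 210 in tie1 KO, against 196 and 132 in tie1 WT, and overlapped. The ratio of means without hoxb3a was 1.22, close to that with it, with an exact permutation p of 0.667. The sum over all Hox rows without it was 241 and 267 in tie1 KO, against 280 and 174 in tie1 WT, with an exact permutation p of 1. Within this class, the groups did not overlap for the sums of group 2, with 46 and 84 in tie1 KO against 40 and 44 in tie1 WT, and of group 3, with 313 and 235 in tie1 KO against 230 and 214 in tie1 WT, but they did for groups 1 and 4. Group 3 without hoxb3a came to 81 and 76 in tie1 KO, against 82 and 57 in tie1 WT, and overlapped too. Counting intervals of the anterior sums overlapped between tie1 KO 2 (326.8 to 415.1) and tie1 WT 1 (313.3 to 376.9). Those of the group 2 sums overlapped between tie1 KO 1 (33.1 to 62.3) and tie1 WT 2 (32.7 to 57.9). Those of the group 3 sums overlapped between tie1 KO 2 (201.6 to 272.4) and tie1 WT 1 (205.0 to 257.2).

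Central rows, groups 5 to 8, summed to 51 and 57 in tie1 KO, against 84 and 42 in tie1 WT. The KO sums lay between the WT sums, with a ratio of means of 0.857 and an exact permutation p of 1. As a share of the Hox sum, which a scaling of the libraries cannot move, the central rows took 10.8% and 13.4% in tie1 KO, against 19.6% and 12.7% in tie1 WT, with an exact permutation p of 0.667. By cluster, the hoxba rows summed to 300 and 254 in tie1 KO, against 251 and 233 in tie1 WT. Of these sums, hoxb3a alone gave 232 and 159 in tie1 KO, against 148 and 157 in tie1 WT. Without that row the groups would overlap. The hoxca rows summed to 39 and 36 in tie1 KO, against 49 and 8 in tie1 WT.

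**Figure D3:**
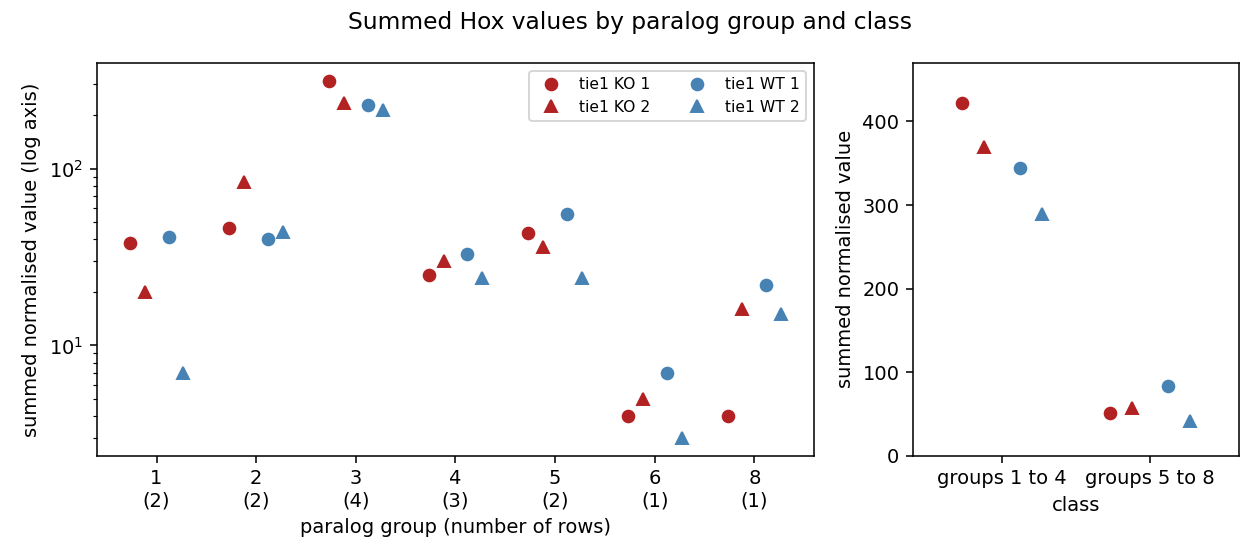
Left, summed normalised value (log axis) of the rows of each paralog group, with the number of rows in brackets; right, the same for groups 1 to 4 and groups 5 to 8 on a linear axis from 0. Points are single libraries of tie1 KO (red) and tie1 WT (blue), circles replicate 1 and triangles replicate 2. The tie1 KO sums of groups 1 to 4 (422 and 369) lie above the tie1 WT sums (344 and 289), while those of groups 5 to 8 lie between them.

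The TALE cofactors, Pbx, Meis and Pknox proteins that bind DNA with Hox proteins, had no row past the threshold. Of 13 tested, 8 had a log2 fold change above 0 and 5 below, with a median of 0.01, against -0.0016 over all rows. The most read were pbx4, a cofactor gene active throughout the early zebrafish embryo, with 545 and 564 in tie1 KO, against 634 and 610 in tie1 WT, and meis1b, with 445 and 507 in tie1 KO, against 495 and 448 in tie1 WT. The 2 smallest p belonged to meis3, with 34 and 55 in tie1 KO, against 99 and 58 in tie1 WT, and meis2b, with 79 and 108 in tie1 KO, against 72 and 45 in tie1 WT. In both rows the groups did not overlap, in opposite directions, and the limma adjusted p was 0.716 for meis3 and 0.718 for meis2b. Over the 13 tested rows, both KO values lay above both WT values in 2 (background 15.7% of rows tested) and below in 4 (background 18.3%).

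Genes of the retinoic acid pathway, the main inducer of anterior Hox genes, also had 0 rows past the threshold, with 6 of 17 tested above 0, 11 below and a median of -0.06. The gene of the retinoic acid degrading enzyme cyp26b1 stood at 268 and 181 in tie1 KO, against 396 and 275 in tie1 WT, and that of the synthesising enzyme aldh1a2 at 66 and 71 in tie1 KO, against 47 and 52 in tie1 WT. The groups overlapped in neither, with limma adjusted p of 0.727 for cyp26b1 and 0.771 for aldh1a2. Over the 17 tested rows, both KO values lay above both WT values in 2 (background 15.7% of rows tested) and below in 3 (background 18.3%). The receptor gene rarga had 130 and 193 in tie1 KO, against 130 and 200 in tie1 WT.

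A list compiled as possible regulators of Hox clusters, among them Polycomb and Trithorax genes, had 15 of 24 tested rows above 0 and 9 below. Its median was 0.06, with 0 past the threshold. Whether each member regulates Hox clusters was not checked. The histone demethylase genes kdm6bb and kdm6ba were the most read, with 1019 and 1058 in tie1 KO, against 1184 and 1044 in tie1 WT, for kdm6bb, and 770 and 760 in tie1 KO, against 1004 and 809 in tie1 WT, for kdm6ba. The smallest p were those of vgll4l, with 17 and 48 in tie1 KO, against 3 and 30 in tie1 WT, and of the Polycomb gene suz12a, with 115 and 116 in tie1 KO, against 105 and 78 in tie1 WT, at limma adjusted p of 0.791 for vgll4l and 0.819 for suz12a. A further list of genes that neighbour Hox clusters in vertebrates and of other homeobox genes had 5 of 13 tested rows above 0, a median of -0.08 and 0 past the threshold. It was led in reads by hnrnpa1a, with 310 and 347 in tie1 KO, against 282 and 385 in tie1 WT, and cbx5, with 301 and 331 in tie1 KO, against 268 and 319 in tie1 WT, and in p by copz2, with 32 and 44 in tie1 KO, against 27 and 26 in tie1 WT, and atp5mc3b, with 161 and 128 in tie1 KO, against 182 and 171 in tie1 WT, at limma adjusted p of 0.811 for copz2 and 0.832 for atp5mc3b.

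**Figure D4:**
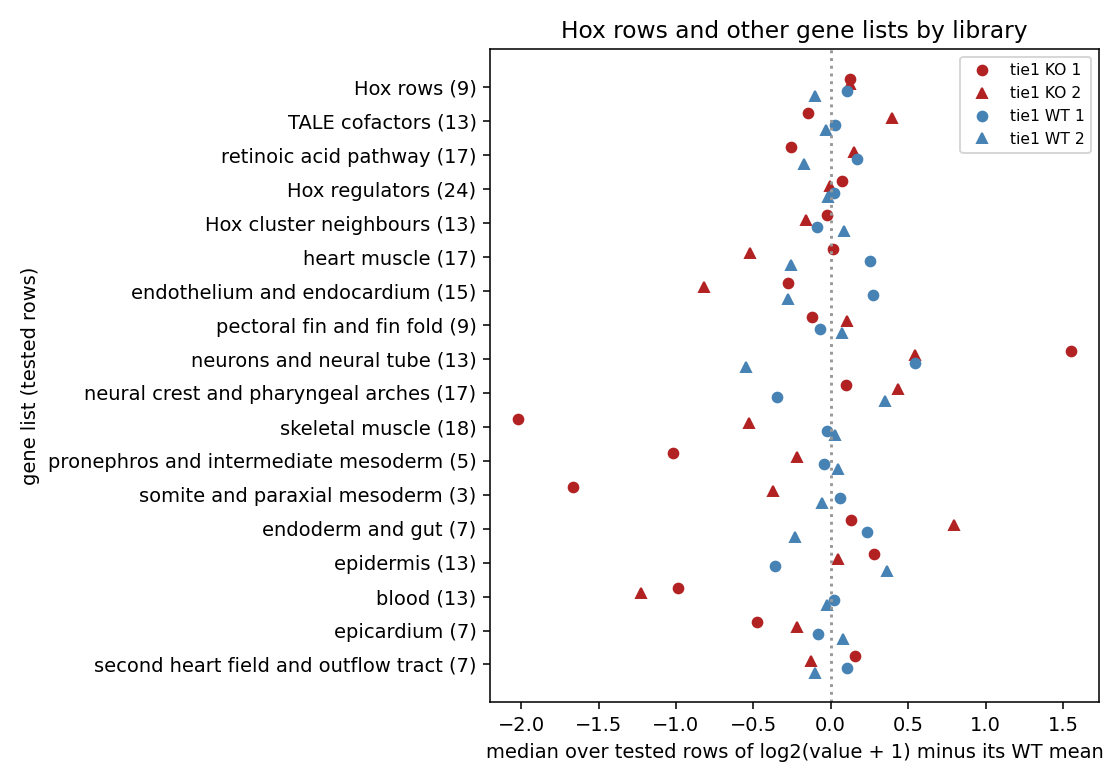
Median over the tested rows (number in brackets) of log2(value + 1) minus the row's tie1 WT mean, for the Hox rows and each other gene list, with 1 point for each tie1 KO (red) and tie1 WT (blue) library, circles replicate 1 and triangles replicate 2. The Hox medians lie between -0.10 and 0.13, while those of skeletal muscle reach -2.02 and those of neurons and neural tube 1.55, both in tie1 KO 1. The tie1 WT points of a list mirror each other around 0 by construction.

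Library medians of the Hox rows relative to the WT mean can be set beside those of other tissues. They were 0.13 and 0.12 in tie1 KO, against 0.10 and -0.10 in tie1 WT. In every list the WT medians mirror each other around 0 by construction, so they show only how far apart the WT libraries lay. Blood genes stood at -0.99 and -1.23 in tie1 KO, against 0.02 and -0.02 in tie1 WT, and endothelial and endocardial genes at -0.28 and -0.82 in tie1 KO, against 0.27 and -0.27 in tie1 WT. Second heart field and outflow tract genes, the heart cells in which anterior Hox genes are known to be active, stood at 0.16 and -0.13 in tie1 KO, against 0.10 and -0.10 in tie1 WT. Epicardial genes stood at -0.48 and -0.22 in tie1 KO, against -0.08 and 0.08 in tie1 WT. Pectoral fin and fin fold genes stood at -0.12 and 0.11 in tie1 KO, against -0.07 and 0.07 in tie1 WT. For pronephros and intermediate mesoderm the medians were -1.02 and -0.22 in tie1 KO, against -0.05 and 0.05 in tie1 WT. Only 5 rows of that list were tested, 4 with a log2 fold change below 0 and 1 above. The 1 above was pax2a, with 45 and 32 in tie1 KO, against 7 and 6 in tie1 WT. The medians were 0.13 and 0.79 in tie1 KO for endoderm and gut, against 0.23 and -0.23 in tie1 WT. For epidermis they were 0.28 and 0.05 in tie1 KO, against -0.36 and 0.36 in tie1 WT. No difference between the Hox rows and another list was tested.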

How the data were processed

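Zebrafish heart pools of 2 tie1 KO and 2 tie1 WT libraries were compared. Per the labels' protocols, 2 ng of DNase-treated total RNA went into a stranded pico-input kit. Per the submitters' processing notes, the tools were STAR 2.4.0a, Subread with featureCounts 1.4.5-p1, and FastQC, and the build was GRCz11 (danRer11); roles are not stated. The authors deposited 1 table of normalised counts as whole numbers, treated here as a score without fixed unit, since the sources used here name neither normalization nor row filter. Fitted factors from the spacing of low values (0.904 and 0.75 for tie1 KO, 1.341 and 1.146 for tie1 WT) gave estimated reads. Where the factor is above 1, rounding merges read numbers, so reads were not recovered and no count test was run.

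Hox rows were matched by gene name, paralog groups 1 to 4 called anterior and 5 to 8 central. log2(value + 1) of rows with a mean of at least 10 was fitted with limma 3.58.1 in R 4.3.3 (mean-variance trend, Benjamini-Hochberg adjustment over 12118 rows), after a test on simulated data. Fold changes are differences of mean log2(value + 1), so in rows with uneven libraries they can be larger or smaller than the ratio of group means. Errors are standard errors (SE) or SD over 2 libraries. The 95% Poisson intervals use estimated reads and cover counting error only, as no molecular identifiers were given. Sums were compared by exact permutation. The members, gene lists and tests were chosen with earlier results of these data known. Every Hox row with a mean of at least 10 is named, with the 3 highest below it and rows alone in a group or cluster, and the other rows by range or value. Of the 15 Hox rows, 1 enters the counts and sums but is not reported singly here. Of each pathway list the 2 rows with most reads and the 2 with the smallest p are named. Of the cell type lists those with most reads are named. Others of them were named after their values were seen, as those at 0, set beside a Hox row or opposite to their list. Alternatives were other filters, pseudocounts and scalings, robust moderation, a replicate block and leaving out each library.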

Additional observations from a re-analysis of the deposited data

How the results depend on the processing

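No Hox row passed the threshold under any alternative run (filters of none, 5 and 50, a pseudocount of 10, 3 other scalings, robust moderation, the replicate block and each library left out). The filter of 5 and the central share were chosen after seeing the data. Over all rows, 0 genes were higher and 0 lower past the threshold, against 1 and 12 among rows averaging 50 or more, 1 and 3 with equal totals outside the mitochondrial genome, 1 and 15 with robust moderation, and 19 and 76 with the replicate block. The shared replicate numbers are not said to mark a common clutch or day. Deviations of KO 1 and WT 1 from their group means correlated at 0.198 across 12118 genes, and with only 2 pairs the numbers were not taken to pair the samples. The block left hoxa2b at an adjusted p of 0.350, the lowest of its alternatives, which ran up to 0.902. With all 4 libraries in the fit, the unadjusted count of 1 higher Hox row changed only among rows averaging 50 or more, where it became 0. That filter removes hoxa2b, with a mean of 29.5, and keeps 2 Hox rows, so this change follows from the filter. In some runs with a library left out the count moved as well. The log2 fold change of hoxa2b ran from 0.51 to 1.25 in those runs. The count of 1 row with both KO values below both WT values became 0 among rows with a mean of at least 10, as that row lies under this filter.

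With a library left out, the counts of Hox rows whose groups did not overlap ran from 3 to 8 (KO above) and from 1 to 9 (KO below), since fewer values have to be in order. The 8 came without tie1 WT 1 and the 9 without tie1 WT 2. The same shares over all rows were not computed, so these counts say nothing particular about the Hox rows. The median Hox log2 fold change ran from -0.20 to 0.29. The sign changed with 1 library left out for hoxa3a (-0.20 to 0.51), hoxb2a (-0.35 to 0.65), hoxb5a (-0.43 to 0.41) and hoxc1a (-0.48 to 2.77). It also changed for hoxb5a with equal totals outside the mitochondrial genome (0.076) and with median of ratios scaling (0.0024). Over all 12118 tested rows, the same scalings moved the median log2 fold change from -0.0016 to 0.086 and to 0.013. In 103 of 110 combinations of a tested Hox row and an alternative the direction stayed, and in 7 it reversed. The filters, robust moderation and the replicate block leave a row's fold change as it was. Direction could not change in those runs, so the tally does not measure stability. The anterior log2 ratio ran from 0.20 to 0.45 with a library left out and was 0.29 without hoxb3a, where the groups overlapped. The central sum ran from -0.64 to 0.36. Posterior sums could not be computed, as the table held no row of groups 9 to 13.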
